A study of Mus musculus with 9 samples.

Results

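The Hox genes of hair follicle stem cells are described here across 3 ages of mouse. They were chosen by symbol alone, as the rows of the deposited expression table named Hoxa, Hoxb, Hoxc or Hoxd followed by a number, and no measured value entered the choice. The rule gave 40 of 37980 rows and 39 gene symbols, because Hoxa3 has another row under an Ensembl identifier that is not in GENCODE M21. Cells were sorted by flow cytometry from the back and belly skin of male C57BL/6J mice aged 3, 19 or 24 months. Each age has 3 libraries, which makes 9. The sort kept cells with high CD49f (integrin alpha 6, which binds the basement membrane) and surface CD34, a pair of markers of the bulge, the part of the follicle that holds its stem cells. No genetic change and no treatment is named in the labels for any age, so the 3 groups differ in their labels by age alone. Back and belly skin are not separated in the labels, so each value is taken over both body sites. The labels do not tell whether separate or pooled mice gave each library. The p-values therefore reflect the spread among these libraries alone, and technical variation may make up that spread. By their running numbers, the 3-month libraries form a run apart from that of the older libraries, so any batch that follows those numbers cannot be told apart from young against old.

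Hox proteins are homeodomain transcription factors encoded in clusters A to D. In the embryo the order of the genes along a cluster follows the order of their expression along the body, with low-numbered genes starting toward the head and high-numbered genes toward the tail and the ends of the limbs. Cells of adult skin keep part of this pattern, which has been described most fully in fibroblasts, and Hoxc13 has a further role in the differentiation of hair and nail at every body site. Hox proteins bind DNA together with partner proteins of the Pbx, Meis and Pknox families.

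The clusters also hold microRNA genes whose products pair with Hox messages. Their mature sequences are shown because the most abundant Hox messages in these cells carried matches to them; the seed, bases 2 to 8, is in capitals. The sequences come from RefSeq on GRCm38.p6. This is another build than that of the expression table, NCBIM37, so the coordinates given here do not locate rows of the table.
mmu-miR-10a-5p: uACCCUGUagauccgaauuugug
mmu-miR-10b-5p: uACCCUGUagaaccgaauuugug
mmu-miR-196a-5p: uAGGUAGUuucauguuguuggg
mmu-miR-196b-5p: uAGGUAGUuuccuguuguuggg

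The members of the miR-10 pair share a seed, as do those of the miR-196 pair. The gene of miR-10a lies in the Hoxb cluster at chr11:96317186-96317208 and that of miR-10b in the Hoxd cluster at chr2:74726074-74726096, both on the plus strand. A gene for miR-196a lies in the Hoxb cluster at chr11:96265187-96265208 and another in the Hoxc cluster at chr15:102973365-102973386, both on the plus strand, while miR-196b lies in the Hoxa cluster at chr6:52230129-52230150 on the minus strand. The 7 letters ACTACCT, which pair with the miR-196 seed, stood in the annotated 3′ UTR of 9 of 39 Hox genes (23.1%), against 5.85% of 21901 genes in GENCODE M21. Among those genes were Hoxa4, Hoxa5, Hoxa7, Hoxa9, Hoxb1, Hoxb6, Hoxb7 and Hoxc8. The letters ACAGGGT, which pair with the miR-10 seed, stood in 4 of 39 (10.3%), among them Hoxa3, Hoxb3 and Hoxd1, against 12.0% of all genes. Only exact letters on the message strand were searched, so a seed match with a G:U pair was not counted.

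Hoxa7 and Hoxc8, the most abundant Hox messages in these cells, held 4 and 2 of the miR-196 matches. The target windows are shown with the match in capitals.
Hoxa7 match 1: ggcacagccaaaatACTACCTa
Hoxa7 match 2: agaggcactcccaaACTACCTa
Hoxa7 match 3: aaaccatgatcaatACTACCTa
Hoxa7 match 4: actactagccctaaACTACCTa
Hoxc8 match 1: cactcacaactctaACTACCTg
Hoxc8 match 2: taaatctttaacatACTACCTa

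At least 1 such match stood in 4.92% of genes with a 3′ UTR of a length like that of Hoxa7 and in 3.55% of those with a length like that of Hoxc8. These matches are letters in a message and not measured sites. Mature microRNAs were not measured in this study.

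Expression is given in FPKM, a count of fragments scaled by transcript length and by the fragments mapped in the library, so levels of different genes can be compared. The depth of each library is unknown, and no value can be turned into a number of fragments. Cd34, which encodes a surface protein used in the sort, lay between 403 and 632 FPKM, and the basal keratin Krt14 between 3235 and 6619 FPKM. Krt15, a bulge keratin, was listed at 0 in all 9 libraries and Krt5, a basal keratin, in the 3 libraries of 19 months, while other libraries reached 7576 FPKM for Krt5, so a listed 0 may be a failed estimate. No tested Hox row was listed at 0 in any library. The values of rows that hold few fragments repeat in fixed steps when 2 libraries were scaled alike. Over rows above 0 and under 0.3 FPKM in both libraries of a pair, the fullest bin of 1% width of the ratio held 6.27 to 16.6% of rows in all 15 pairs among 6 libraries. Replicate 1 of 19 months and replicate 2 of 24 months shared steps with each other (7.18% of rows) and with no other library, where the share was at most 1.40%. For replicate 1 of 3 months the share was at most 1.75% with any library. These 3 libraries, 1 of each age, therefore stand apart from the other 6, and results are given below with and without them.

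A pair of genes from the middle of the clusters, which mark the trunk, stood above all other Hox genes. Hoxa7 was the highest in all 9 libraries with a mean of 115 FPKM, and Hoxc8 followed in all 9 with a mean of 36.1 FPKM. All 40 rows together summed to between 184.5 and 325 FPKM per library, of which Hoxa7 took 36.5 to 62.2% and Hoxc8 11.5 to 20.5%. Only 2 to 4 Hox rows per library lay above the median of the tested protein-coding genes, which was 10.01 to 11.3 FPKM. Since these are bulk samples, fewer cells with a message and less message per cell cannot be told apart.

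**Figure D1:**
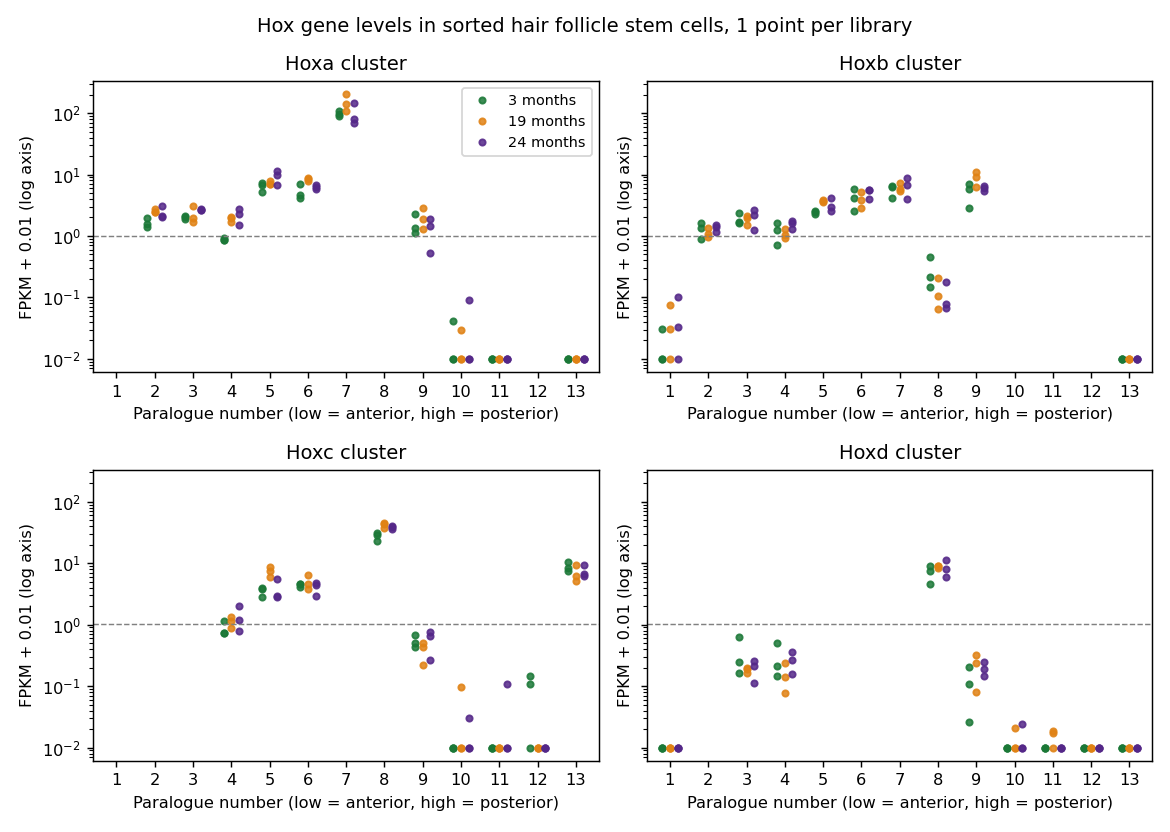
Level of Hox genes in FPKM (log axis, 0.01 added so that a value of 0 is drawn at the bottom) against its number in the cluster, with 1 point per library, coloured by age, and a dashed line at 1 FPKM; for Hoxa3 the current row is drawn. Hoxa7 and Hoxc8 sit above all others, and numbers 10 to 13 sit at or near the bottom except Hoxc13, at 5.18 to 10.4 FPKM.

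Of the 40 rows, 21 reached at least 1 FPKM in 3 or more libraries and could be tested, and these were also the rows with a mean of at least 1 FPKM. The share differed between clusters, with 8 of 12 rows of Hoxa, 7 of 10 of Hoxb, 5 of 9 of Hoxc and 1 of 9 of Hoxd. Of the 19 others, 6 were listed at 0 in all 9 libraries (Hoxa11, Hoxa13, Hoxb13, Hoxd1, Hoxd12 and Hoxd13). A further 12 were above 0 in some library and never reached 1 FPKM. The last, the second Hoxa3 row, reached 1 FPKM in 1 library, with a range of 0.349 to 1.13 FPKM.

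Hoxa7, a gene of trunk position, measured 96.8, 108 and 88.0 FPKM at 3 months, 202, 139 and 109 at 19 months and 143, 80.9 and 69.9 at 24 months. Its highest values at 19 and at 24 months came from the libraries of each age that stand apart. Hoxc8, which patterns the thoracic part of the embryo, measured 23.2, 31.2 and 29.1 FPKM at 3 months, 37.4, 44.5 and 44.0 at 19 months and 39.6, 36.5 and 39.2 at 24 months. Hoxa7 was 1.785 to 5.415 times Hoxc8 within a library, and Hoxc8 in turn 3.08 to 6.35 times Hoxd8, the next gene by mean. The ranges of these 3 genes over the 9 libraries did not overlap. From the Hoxd8 level downward every gene overlapped its neighbour in the order of means, so that order is not resolved by these libraries.

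**Figure D2:**
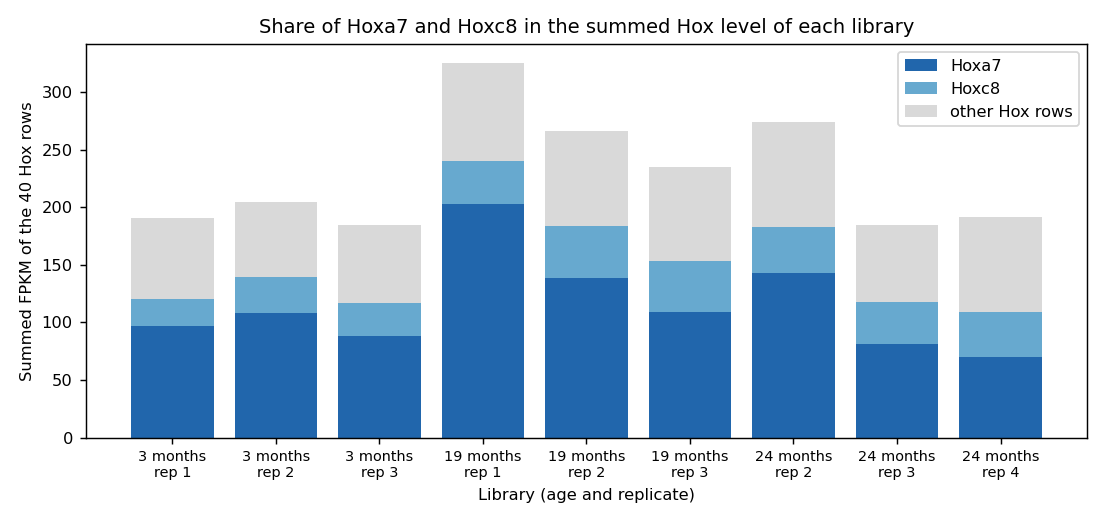
Summed FPKM of the 40 Hox rows in each library (bars from 0), split into Hoxa7 (dark blue), Hoxc8 (light blue) and the other rows (grey), with libraries ordered by age and replicate. The sum ranges from 184.5 to 325 FPKM and is highest in replicate 1 of 19 months, where Hoxa7 alone is 202 FPKM, while the other rows together stay between 65.3 and 90.8 FPKM.

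The anterior genes Hoxa2, Hoxa3, Hoxb2 and Hoxb3 lay between 0.879 and 3.12 FPKM. Hoxa2, which patterns the second pharyngeal arch, measured 1.99, 1.54 and 1.41 FPKM at 3 months, 2.70, 2.43 and 2.42 at 19 months and 3.12, 2.02 and 2.11 at 24 months. Hoxa2 had its 3 lowest values at 3 months. Hoxa3, needed for the thymus and parathyroid, measured 2.11, 2.04 and 1.85 FPKM at 3 months, 3.05, 1.65 and 1.94 at 19 months and 2.63, 2.64 and 2.73 at 24 months. Hoxb2, a hindbrain patterning gene, measured 1.61, 0.879 and 1.35 FPKM at 3 months, 1.34, 1.07 and 0.954 at 19 months and 1.40, 1.13 and 1.52 at 24 months. Hoxb3 measured 2.34, 1.63 and 1.69 FPKM at 3 months, 2.11, 1.51 and 1.93 at 19 months and 2.61, 1.23 and 2.17 at 24 months. The 3 ages overlapped for Hoxb2 and Hoxb3, and 19 months overlapped both other ages for Hoxa3. The exons of Hoxb2 and Hoxb3 overlap those of the antisense RNA Hoxb3os over 953 and 2250 bases. Hoxa3 shares 1529 exon bases with genes on the opposite strand, among them Hoxaas2 and Hoxaas3. On the same strand Hoxa2 and Hoxa3 share 267 and 482 exon bases with Gm28308. The values of all these Hox genes are therefore uncertain. Hoxb1 stayed under 1 FPKM, at 0 to 0.0907 FPKM, and Hoxd1 was listed at 0 throughout.

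Genes 4 and 5, of the neck and upper trunk, lay between 0.712 and 11.6 FPKM where they could be tested. Hoxa4 measured 0.842, 0.911 and 0.863 FPKM at 3 months, 2.04, 1.92 and 1.71 at 19 months and 2.77, 1.49 and 2.26 at 24 months. Every older library was above every 3-month library for Hoxa4, with the widest spread at 24 months. Hoxb4, known for expanding blood stem cells, measured 1.62, 0.712 and 1.25 FPKM at 3 months, 1.01, 1.27 and 0.915 at 19 months and 1.28, 1.61 and 1.75 at 24 months. Hoxc4 measured 1.13, 0.717 and 0.715 FPKM at 3 months, 0.858, 1.30 and 1.12 at 19 months and 1.19, 0.788 and 2.01 at 24 months. Hoxb4 was higher in each 24-month library than in any of 19 months, and Hoxc4 overlapped between all ages. Hoxa5, needed for lung development, measured 6.78, 5.27 and 7.23 FPKM at 3 months, 7.98, 7.06 and 7.09 at 19 months and 11.6, 6.64 and 9.82 at 24 months. Hoxb5 measured 2.48, 2.29 and 2.56 FPKM at 3 months, 3.79, 3.62 and 3.71 at 19 months and 4.13, 2.91 and 2.57 at 24 months. Hoxc5 measured 2.82, 3.96 and 3.81 FPKM at 3 months, 6.06, 8.54 and 7.50 at 19 months and 5.47, 2.85 and 2.90 at 24 months. Hoxa5 overlapped between ages, Hoxb5 was lowest in the 3-month libraries, and Hoxc5 was highest in the 19-month libraries with no overlap with either other age. Hoxb5 shares 100 exon bases with the antisense RNA Hoxb5os. Hoxd4 stayed at 0.0684 to 0.490 FPKM and Hoxd3 at 0.104 to 0.618 FPKM. Of the 2948 exon bases of Hoxd4 in GENCODE M21, 1542 are shared on the same strand with Hoxd3 and Gm28230, so the split of fragments between these genes is uncertain.

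Genes 6 and 7 other than Hoxa7 lay at 2.58 to 8.86 FPKM. Hoxa6 measured 4.57, 4.07 and 6.93 FPKM at 3 months, 8.60, 8.61 and 7.74 at 19 months and 6.84, 6.18 and 5.78 at 24 months. Hoxb6 measured 5.78, 4.18 and 2.58 FPKM at 3 months, 5.28, 2.85 and 3.85 at 19 months and 5.58, 3.94 and 5.55 at 24 months. All 19-month values of Hoxa6 were above those of the other ages, and Hoxb6 overlapped between all ages. Hoxc6, which marks the forelimb level and upper trunk, measured 4.59, 4.09 and 4.52 FPKM at 3 months, 6.46, 4.50 and 3.84 at 19 months and 4.78, 4.37 and 2.96 at 24 months. Hoxb7 measured 6.56, 4.15 and 6.37 FPKM at 3 months, 7.21, 5.89 and 5.29 at 19 months and 8.86, 4.04 and 6.66 at 24 months. Both overlapped between all ages.

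Genes 8 and 9 differed by cluster. Hoxd8 measured 7.53, 9.08 and 4.58 FPKM at 3 months, 9.05, 8.32 and 9.001 at 19 months and 11.1, 6.05 and 8.07 at 24 months, and was the only tested gene of its cluster. Hoxb8, whose loss in mice leads to excessive grooming and hair removal, never reached 1 FPKM and lay at 0.0556 to 0.439 FPKM. Its neighbours in the cluster were both higher in every library. Hoxb9 measured 2.87, 6.92 and 5.87 FPKM at 3 months, 6.37, 11.2 and 9.09 at 19 months and 5.29, 5.92 and 6.54 at 24 months, and Hoxb7, on the other side, lay at 4.04 to 8.86 FPKM. Hoxa9, known from blood progenitors and leukaemia, measured 1.34, 2.26 and 1.10 FPKM at 3 months, 2.88, 1.29 and 1.87 at 19 months and 0.517, 1.42 and 1.85 at 24 months. Both number 9 genes overlapped between ages. Hoxc9, next to the abundant Hoxc8, lay at 0.210 to 0.751 FPKM and Hoxd9, next to Hoxd8, at 0.0165 to 0.306 FPKM, so in these clusters the level dropped from number 8 to number 9 in every library.

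The posterior genes, numbers 10 to 13, were at or near 0 apart from Hoxc13. Of these 12 rows, 11 never reached 1 FPKM, 5 were listed at 0 in all 9 libraries, and the highest value among the 11 was 0.137 FPKM, for Hoxc12. Hoxc13, a regulator of hair keratin genes, measured 8.42, 7.47 and 10.4 FPKM at 3 months, 5.18, 6.15 and 9.34 at 19 months and 6.30, 6.54 and 9.36 at 24 months. All 9 values of Hoxc13 were thus at least 5.18 FPKM, and the ages overlapped. Hoxc10 shared 166 exon bases with Hoxc5 on the same strand in GENCODE M21 and was listed at 0 in 7 of 9 libraries.

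The promoter sequences of Hoxa7, of Hoxd8 and of its low neighbour Hoxd9 are shown because Hoxa7 had the highest level and because the neighbours Hoxd8 and Hoxd9 differed widely in level. Each window of 300 bases covers the annotated start and the bases before it, from RefSeq on GRCm38.p6, and is written 5′ to 3′ on the strand of the gene with CG pairs in capitals. Hoxa7 lies at chr6:52218524-52218823 on the minus strand, Hoxd8 at chr2:74704365-74704664 on the plus strand and Hoxd9 at chr2:74697513-74697812 on the plus strand.
Hoxa7: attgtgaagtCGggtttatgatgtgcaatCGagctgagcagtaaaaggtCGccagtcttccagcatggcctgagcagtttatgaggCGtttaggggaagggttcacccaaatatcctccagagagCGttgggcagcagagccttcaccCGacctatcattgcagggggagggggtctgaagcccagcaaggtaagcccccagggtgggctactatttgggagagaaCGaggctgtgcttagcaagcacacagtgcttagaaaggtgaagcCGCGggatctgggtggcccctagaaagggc
Hoxd8: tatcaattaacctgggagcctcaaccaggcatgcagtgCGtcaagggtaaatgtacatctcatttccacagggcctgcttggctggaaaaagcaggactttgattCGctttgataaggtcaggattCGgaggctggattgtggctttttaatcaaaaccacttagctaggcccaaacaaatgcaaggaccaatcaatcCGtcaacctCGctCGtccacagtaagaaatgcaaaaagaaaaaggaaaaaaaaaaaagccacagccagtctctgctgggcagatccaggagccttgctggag
Hoxd9: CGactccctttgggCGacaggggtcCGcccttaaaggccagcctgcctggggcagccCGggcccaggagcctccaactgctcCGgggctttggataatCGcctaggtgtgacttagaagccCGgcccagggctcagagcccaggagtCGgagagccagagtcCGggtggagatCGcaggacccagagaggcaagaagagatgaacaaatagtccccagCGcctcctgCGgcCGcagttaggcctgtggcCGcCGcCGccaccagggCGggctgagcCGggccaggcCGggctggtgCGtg

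These windows held 9, 6 and 20 CG pairs. The table of promoters held 24 windows for 22 Hox genes. The 9 windows of tested Hox genes held 4 to 29 CG pairs with a median of 9, and the 15 windows of Hox genes that were not tested held 4 to 45 with a median of 20, against a median of 7 over all 32851 windows. The TATA box letters TATAAA stood, on either strand, in 4 Hox windows (Hoxa10, Hoxb8, Hoxd4 and Hoxd13), 0 of them of tested genes, against 13.6% of all windows. The letters TGATNNAT, to which Hox and Pbx proteins bind jointly, stood on either strand in 4 Hox windows, 1 of them of a tested gene, Hoxa2, against 8.85% of all windows. These are descriptions of letters and were not set against the expression values by a test.

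The 21 tested Hox genes were then compared between ages, since age is what separates the groups of the study. No Hox gene passed the test over the whole table, and those nearest to it, Hoxa4 and Hoxc8, were higher in the older libraries. In the test over all 14275 tested rows, 0 of 21 Hox genes passed at 19 against 3 months, where 0.280% of all rows did. The counts were also 0 at 24 against 3 months (0.203% of all rows), at 24 against 19 months (0.0490%) and in the F test for a difference at any age (0.224%). The test was limma on log2(FPKM + 1), and a gene passed where its p, adjusted by Benjamini-Hochberg over all rows, was under 0.05. The smallest adjusted p was 0.155 for Hoxc8 at 19 against 3 months, 0.0856 for Hoxa4 at 24 against 3 months, 0.2735 for Hoxc5 at 24 against 19 months and 0.1335 for Hoxa4 at any age. A count of 0 among 21 is near this background and is not a result about Hox genes.

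At an unadjusted p under 0.05 there were 7, 5 and 2 Hox genes in the comparisons of 19 against 3, 24 against 3 and 24 against 19 months, where 14.0%, 18.6% and 10.7% of all rows passed. All 7 at 19 against 3 months were higher at 19 months (Hoxa2, Hoxa4, Hoxa6, Hoxb5, Hoxb9, Hoxc5 and Hoxc8), a direction in which 7.22% of all rows passed. All 5 at 24 against 3 months were higher at 24 months (among them Hoxa2, Hoxa4, Hoxa5 and Hoxc8), against 9.10% of all rows. At 24 against 19 months 1 was higher, and Hoxc5 was lower. These comparisons share libraries, and their counts are not independent of each other. The median difference over the 21 genes was 0.18, 0.23 and 0.03 on the log2(FPKM + 1) scale in the same order, beside medians of 0.00, 0.00 and -0.01 over all rows. A difference above 0 was found in 15, 17 and 11 of the 21, beside 50.4%, 50.1% and 48.4% of all rows.

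**Figure D3:**
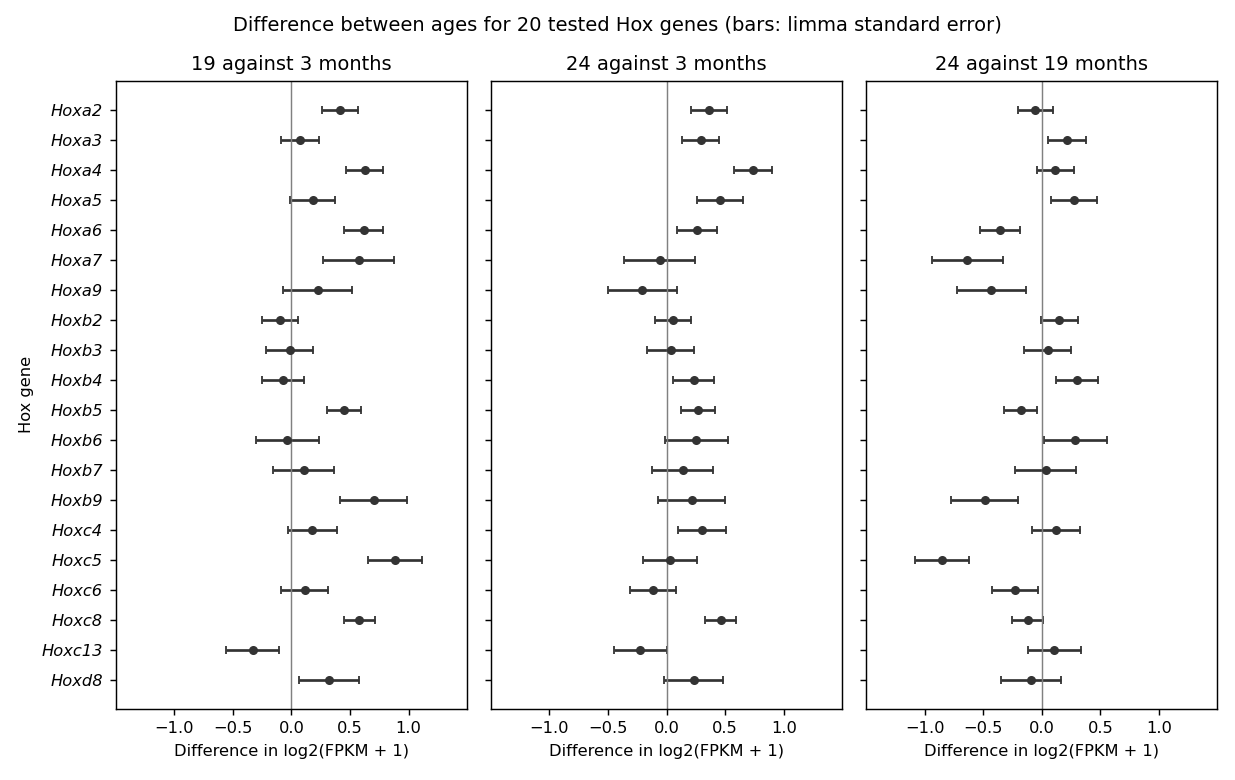
Difference between ages of 20 tested Hox genes on the log2(FPKM + 1) scale (points) with limma's standard error (bars), 1 panel per comparison and a grey line at 0. At 24 against 3 months 16 of 20 points lie above 0, and Hoxc5 lies at 0.88 at 19 against 3 months.

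Another fit, an alternative chosen with earlier results of these data known, was restricted to 11509 protein-coding genes. It called 0 Hox genes at 19 against 3 months (1.56% of its genes), 1 at 24 against 3 months (3.84%), 0 at 24 against 19 months (0.930%) and 2 in the test of any age (4.54%). The genes were Hoxa4 at 24 against 3 months and Hoxc5 and Hoxc8 at any age. These shares of 21 are close to those of all genes in the fit and are no result about Hox genes as a set.

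Hoxa4 rose from 0.872 ± 0.0353 FPKM at 3 months to 2.17 ± 0.646 FPKM at 24 months (SD, n = 3) in the protein-coding fit. The difference was 0.74 on the log2(FPKM + 1) scale, with a limma standard error of 0.16 over all rows and 0.19 in the protein-coding fit. The adjusted p was 0.0413 in the protein-coding fit and 0.0856 over all rows. At 19 months the mean was 1.89 ± 0.167 FPKM (SD, n = 3), and the difference to 3 months of 0.62 ± 0.16 had an adjusted p of 0.178 over all rows. The call held in 2 of the 9 protein-coding fits that left out 1 library. Without replicate 4 of 24 months, the adjusted p was 0.141, and with the 6 libraries that share steps it was 0.181. Hoxa4 shares 255 exon bases with the antisense gene Gm29430. The sources used here do not give whether fragments were assigned by strand, and fragments of the 2 genes cannot be told apart.

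Hoxc8 was 27.8 ± 4.15 FPKM at 3 months, 42.0 ± 3.97 FPKM at 19 months and 38.4 ± 1.67 FPKM at 24 months (SD, n = 3), with all 6 older libraries above the 3 young ones. It differed between ages in the protein-coding fit, with an adjusted p of 0.0487 at any age against 0.147 over all rows. The difference on the log2(FPKM + 1) scale was 0.58 ± 0.13 at 19 against 3 months and 0.46 ± 0.13 at 24 against 3 months. These are limma standard errors over all rows, and both were 0.14 in the protein-coding fit. The any-age call held in 1 of the 9 protein-coding fits that left out 1 library. It was lost without replicate 1 of 3 months, the lowest library, where the adjusted p was 0.161, and with the 6 libraries that share steps, where it was 0.116.

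Hoxc5 was highest at 19 months, at 7.37 ± 1.24 FPKM, against 3.53 ± 0.619 FPKM at 3 months and 3.74 ± 1.502 FPKM at 24 months (SD, n = 3). The adjusted p of the any-age test was 0.0369 in the protein-coding fit and 0.164 over all rows. Hoxc5 differed by 0.88 ± 0.23 on the log2(FPKM + 1) scale at 19 against 3 months and by -0.85 ± 0.23 at 24 against 19 months. These are limma standard errors over all rows, and both were 0.22 in the protein-coding fit. The any-age call held in 2 of the 9 protein-coding fits that left out 1 library, and its highest adjusted p, 0.154, came without replicate 2 of 19 months. Hoxc5 shares 166 exon bases with Hoxc10 on the same strand in GENCODE M21.

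With the 6 libraries that share steps, 2 per age, the test over all rows again called 0 Hox genes in every comparison. The protein-coding fit of those libraries called 0 Hox genes at 19 against 3 months (0.938% of 11297 genes), 1 at 24 against 3 months (3.23%), 2 at 24 against 19 months (2.65%) and 2 at any age (4.46%). Hoxc5 was lower at 24 than at 19 months by a difference of -1.22 ± 0.20 on the log2(FPKM + 1) scale, with an adjusted p of 0.00726, and it was also called at any age, with an adjusted p of 0.0120.

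The ages were also compared by the overlap of their libraries. Each library of 19 months was above each of 3 months in 7 Hox genes (Hoxa2, Hoxa4, Hoxa6, Hoxa7, Hoxb5, Hoxc5 and Hoxc8), where 10.5% of all rows behaved so, and below in 0 (10.9% of all rows). Each library of 24 months was above each of 3 months in 6 (among them Hoxa2, Hoxa3, Hoxa4, Hoxb5 and Hoxc8), against 10.3% of all rows, and below in 0 (11.0%). At 24 against 19 months 2 were above (among them Hoxb4, 7.85% of all rows) and 2 below (Hoxa6 and Hoxc5, 9.44%). All 3-month libraries lay below all others in 4 genes, Hoxa2, Hoxa4, Hoxb5 and Hoxc8, a pattern of 4.39% of all rows. All 19-month libraries lay above all others in Hoxa6 and Hoxc5 (2.08% of all rows). Of these genes 0 passed the test over all rows at any comparison.

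**Figure D4:**
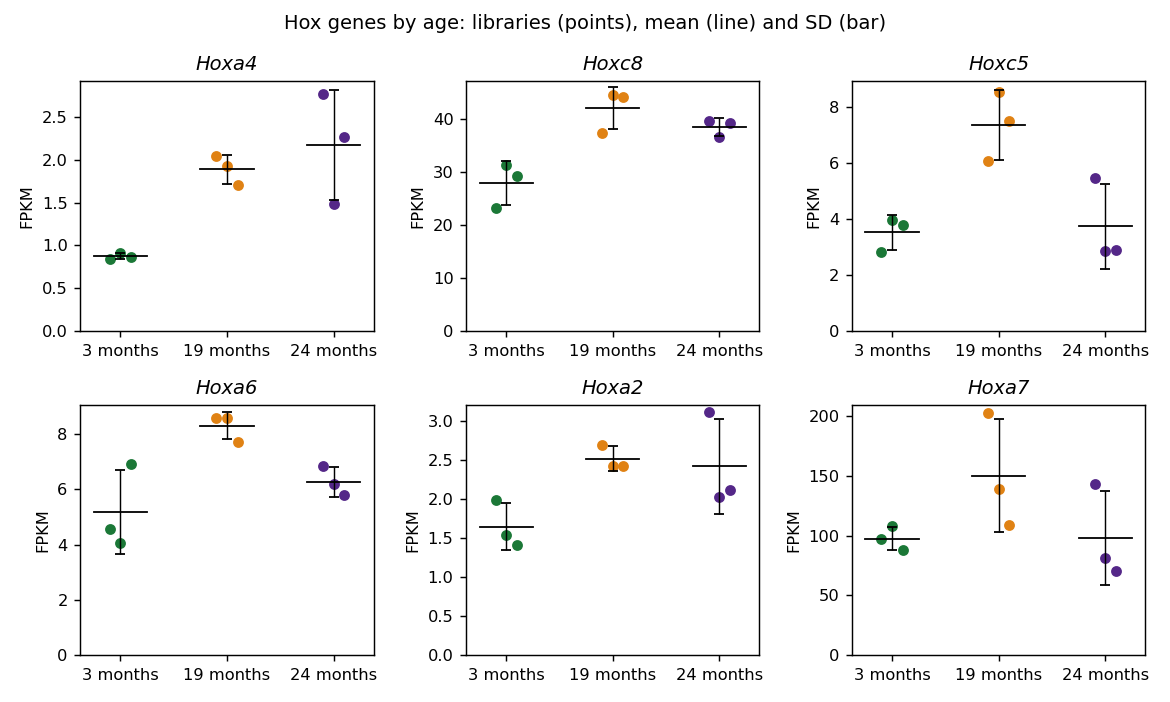
FPKM (linear axis from 0) of Hoxa4, Hoxc8, Hoxc5, Hoxa6, Hoxa2 and Hoxa7 in each library (points) by age, with the mean (line) and SD (bar) over 3 libraries. Hoxa4, Hoxc8 and Hoxa2 are lowest in all 3-month libraries, Hoxc5 and Hoxa6 highest in all 19-month libraries, and Hoxa7 spreads from 109 to 202 FPKM at 19 months.

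At 19 and at 24 months 1 library was the highest for most Hox genes. Replicate 1 of 19 months was the highest of its age in 14 of the 21 genes, beside 33.7% of all rows, and replicate 2 of 24 months in 13, beside 29.2%. Both belong to the 3 libraries that stand apart. Replicate 1 of 3 months, which also stands apart, was the highest of its age in 10 of the 21 genes, beside 27.5% of all rows. Replicate 3 of 24 months was the highest in 0 of 21 genes and the lowest in 11, beside 38.2% and 29.8% of all rows. Hoxa7 spread more widely at the older ages, with 150.2 ± 47.6 FPKM at 19 months and 98.0 ± 39.5 FPKM at 24 months (SD, n = 3) against 97.5 ± 9.94 FPKM at 3 months. Its exons overlap those of the antisense RNA Hoxaas3 over 586 bases.

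Messages of the partner proteins of Hox differed widely in level. Of 9 genes of the Pbx, Meis and Pknox families 8 could be tested, and Meis1 was the most abundant, with a mean of 32.8 FPKM over the 9 libraries. Pbx3 lay at 9.45 to 19.4 FPKM. Pknox1 (also called Prep1), which pairs with Pbx proteins, measured 14.3, 18.5 and 14.01 FPKM at 3 months, 14.00, 12.1 and 11.9 at 19 months and 6.63, 8.20 and 6.16 at 24 months. All 3 values of 24 months were below all others. Pknox1 fell by 1.05 ± 0.15 at 24 against 3 months on the log2(FPKM + 1) scale (standard error over all rows, 0.16 in the protein-coding fit). The adjusted p was 0.0485 over all rows and 0.00389 in the protein-coding fit. Pknox1 alone of the 8 was called by either fit (0.203% of all rows and 3.84% of protein-coding genes were called in this comparison). At 24 against 19 months it differed by -0.78 with an adjusted p of 0.187 over all rows and 0.0369 in the protein-coding fit. That latter call held in 4 of the 9 protein-coding fits that left out 1 library (highest adjusted p 0.187, without replicate 4 of 24 months) and was lost with the 6 libraries that share steps (0.103). The call at 24 against 3 months over all rows was lost when any 1 of the 9 libraries was left out (adjusted p of 0.0577 to 0.1495), and also without a filter on low values (0.0790) and with a pseudocount of 0.1 (0.0512). It held in all 9 protein-coding fits that left out 1 library, where the highest adjusted p was 0.0235, and with the 6 libraries that share steps (0.0186).

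Among regulators that keep Hox genes silent or active, 1 of 28 was called at 24 against 3 months in the protein-coding fit, where 3.84% of all genes were, so the share is near that background. All 28 Polycomb and Trithorax genes of the list were tested, led by Rbbp4 with a mean of 131 FPKM and Ezh1, a histone H3 lysine 27 methyltransferase, with 51.3 FPKM. In the test over all rows 0 were called in any comparison. In the protein-coding fit Kdm6b, an enzyme that removes methyl groups from the same lysine, fell by 0.71 ± 0.18 at 24 against 3 months on the log2(FPKM + 1) scale, with an adjusted p of 0.0443 against 0.130 over all rows. Kdm6b measured 18.4, 18.9 and 16.8 FPKM at 3 months, 15.2, 11.1 and 9.79 at 19 months and 12.6, 11.6 and 8.16 at 24 months. The 3-month libraries were above all others, and 3 of the 9 protein-coding fits that left out 1 library kept the call. With the 6 libraries that share steps, the adjusted p at 24 against 3 months was 0.0446 in the protein-coding fit. Over all rows of those libraries it was 0.215. Of 15 genes that act on Hox genes in the embryo 9 were tested and 0 called by either fit. This is near the background of at most 0.280% of all rows and 4.54% of protein-coding genes. Hnrnpk had a mean of 549 FPKM and Rarg, a retinoic acid receptor, of 28.2 FPKM. Rarg was at 77.9 FPKM in replicate 3 of 3 months and 65.15 FPKM in replicate 2 of 24 months. In the remaining libraries it lay at 11.2 to 19.9 FPKM. Cdx1, Cdx2 and Cdx4, activators of trunk Hox genes in the embryo, were listed at 0 in all libraries.

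Several noncoding RNAs of the clusters were detected. Of 24 RNAs and neighbouring genes 9 were tested and 0 called, where at most 0.280% of all rows were called in any comparison, so the count is near the background. The antisense RNA Hotairm1, from the anterior end of the Hoxa cluster, lay at 7.57 to 15.4 FPKM, Hoxb5os at 4.12 to 9.55 FPKM, Hoxaas3 at 3.38 to 9.05 FPKM and Hoxd3os1 at 1.502 to 8.89 FPKM. Hotair, from the posterior part of the Hoxc cluster, and Hottip, from the posterior end of the Hoxa cluster, were listed at 0 in all 9 libraries, as were Hoxa11os and Evx1. The rows of Mir10a, Mir10b, Mir196a-2, Mir196b and Mir615 were also at 0 throughout, and Mir196a-1 was at 288 FPKM in replicate 2 of 19 months and at 0 in the 8 others. The rows of these short precursors say nothing of the mature microRNAs shown above. Among the neighbouring genes, Skap2, beside the Hoxa cluster, was the most abundant with a mean of 62.1 FPKM.

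Hoxc13 is known to drive hair shaft keratins. A list of 21 keratins and other genes of the hair shaft and inner root sheath was read beside it, and 20 had a row. Only 6 were tested, and 10 never reached 1 FPKM. Krt32 was the only hair shaft keratin among the 6. In the protein-coding fit Krt32, a hair cuticle keratin, rose at 24 against 3 months by 0.80 ± 0.16 and at 24 against 19 months by 0.83 ± 0.16 on the log2(FPKM + 1) scale, with adjusted p of 0.0148 and 0.0311. Krt32 alone of the 6 was called in that fit, where 3.84% and 0.930% of all genes were called. Over all rows the adjusted p were 0.0853 and 0.209, and 0 of the 6 were called in either comparison. With the 6 libraries that share steps, the adjusted p were 0.017 and 0.0061 in the protein-coding fit. Over all rows of those libraries they were 0.167 and 0.131. Of the 9 protein-coding fits that left out 1 library, 7 kept the call at 24 against 3 months and 4 that at 24 against 19 months, with highest adjusted p of 0.0807 and 0.1645, both without replicate 4 of 24 months. Krt32 measured 21.9, 22.4 and 23.0 FPKM at 3 months, 25.3, 19.5 and 21.4 at 19 months and 31.9, 38.8 and 50.4 at 24 months. Its 24-month libraries were above all others, while Hoxc13 overlapped between ages, with a difference of -0.22 ± 0.23 at 24 against 3 months. Krt71, a keratin of the inner root sheath, had a mean of 5.71 FPKM.

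**Figure D5:**
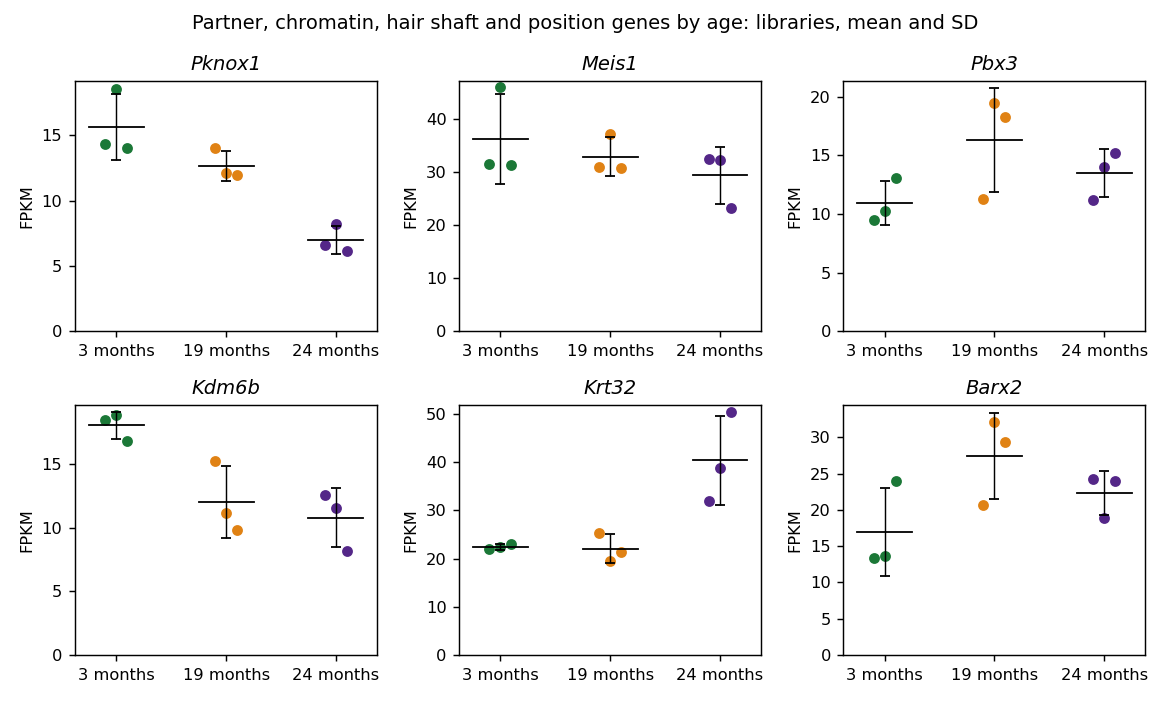
FPKM (linear axis from 0) of Pknox1, Meis1, Pbx3, Kdm6b, Krt32 and Barx2 in each library (points) by age, with the mean (line) and SD (bar) over 3 libraries. The 24-month libraries are the lowest for Pknox1, at 6.16 to 8.20 FPKM, and the highest for Krt32, at 31.9 to 50.4 FPKM, while Meis1, Pbx3 and Barx2 overlap between ages.

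Among other transcription factors of body position, all 29 on the list had a row, 9 were tested, and 20 never reached 1 FPKM. In any comparison 0 were called by either fit, near the background of at most 0.280% of all rows and 4.54% of protein-coding genes. Barx2 and Irx5 were the most abundant, with means of 22.2 and 7.39 FPKM. Pitx1, a hindlimb gene, En2, Sim2 and Foxd1 were listed at 0 in all 9 libraries. Tbx4, of the hindlimb, and Tbx5, of the forelimb, were at most 0.0111 and 0.0554 FPKM.

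Dermal fibroblasts also carry positional Hox patterns, so their markers were read beside the Hox levels. The 12 fibroblast markers summed to 6.57 to 9.59 FPKM at 3 months, 10.5 to 12.7 FPKM at 19 months and 9.93 to 17.7 FPKM at 24 months. Of these 12, 9 never reached 1 FPKM in any library, and Col1a2 led with a mean of 8.27 FPKM. Col1a2 was lowest in the 3-month libraries, as was Hoxc8, at 4.46, 6.01 and 6.92 FPKM, against 10.7, 8.94 and 10.5 FPKM at 19 months and 10.3, 8.24 and 8.43 FPKM at 24 months. Col1a1, the other tested marker, lay at 0.944, 1.18 and 1.21 FPKM at 3 months, 0.625, 0.687 and 0.828 FPKM at 19 months and 1.79, 0.333 and 0.711 FPKM at 24 months, with each 19-month library below each of 3 months. Dcn was listed at 0 in 1 library and reached 3.18 FPKM in replicate 2 of 24 months, and Pdgfra and Pi16 were above 0 in all 9 libraries and under 1 FPKM. Col3a1 and Lum were listed at 0 in 5 and 7 of the 9 libraries, and none of the 12 was at 0 in all 9. The 6 melanocyte markers summed to 37.1 to 45.9, 31.5 to 32.8 and 29.0 to 34.6 FPKM and the 6 endothelial markers to 11.8 to 14.2, 9.67 to 10.7 and 5.63 to 7.24 FPKM at 3, 19 and 24 months. Of the 6 endothelial markers 4 never reached 1 FPKM, 1 of them at 0 in all 9 libraries. Their sum therefore came mostly from the 2 others. Both were called lower at 24 against 3 months in the protein-coding fit, where 3.84% of genes were called. Over all rows 1 was called (0.203% of rows). In the melanocyte list 1 gene made up most of the sum. In the protein-coding fit 1 member was called lower at 19 and at 24 against 3 months (1.56% and 3.84% of genes). The part of these other cells in the Hox values was not tested.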

How the data were processed

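The authors' deposited table holds 1 FPKM value per row and library for 37980 rows and 9 libraries of sorted hair follicle stem cells. Per the submitters' processing notes the authors used TopHat and Cuffdiff, with NCBIM37 as genome build; the sources used here give neither tool versions nor settings nor the handling of strand. The 14275 rows that reached 1 FPKM in 3 or more libraries were tested two-sided with limma 3.58.1 in R 4.3.3 on log2(FPKM + 1), with a mean-dependent prior variance and all 9 libraries in 1 model. P-values were Benjamini-Hochberg adjusted over all tested rows, with a threshold of 0.05. The log2(FPKM + 1) scale understates the change of low genes. The script was checked on simulated data. Alternatives were a fit of 11509 protein-coding genes, other filters, pseudocounts and priors, quantile normalization, a replicate block and leaving out libraries. The protein-coding fit also left out rows listed at 0 throughout 1 age and at 5 FPKM or more throughout another. There were 36 such rows over all gene types. Leaving out libraries within the protein-coding fit, and using only the 6 libraries that share steps, were chosen after seeing the data. Gene types, exons and 3′ UTRs came from GENCODE M21, and 32916 of the 37980 identifiers matched the gene name table, among them 38 of the 40 Hox rows. The members and gene lists were chosen with earlier results of these data known. The Hox genes with a mean of at least 1 FPKM are given in every library. Of the lists of genes linked to Hox or body position, the 2 members with the highest mean and those called by either fit are named. Of the cell type marker lists, not all such members are named, and some were called. Other named members were chosen after their values were seen. The values of 4 genes are not reported here, though counts and sums include them.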

Additional observations from a re-analysis of the deposited data

How the results depend on the processing

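The count of called Hox genes was 0 in all 4 comparisons under every alternative to the test over all rows: a pseudocount of 0.1, no filter, at least 1 FPKM in all 9 libraries, no rows listed at 0, quantile normalization, a robust prior, each library left out and the 6 libraries that share steps. The protein-coding fit called 0 at 19 against 3 months, 1 at 24 against 3 months, 0 at 24 against 19 months and 2 at any age. When it left out 1 library it called 0 to 2, 0 to 1, 0 to 2 and 0 to 3 in the same order. With the 6 libraries that share steps it called 0, 1, 2 and 2. The replicate block called 0 Hox genes in each comparison. Same-numbered libraries of different ages had correlations of their deviations from the age mean of -0.197 to 0.187, so the numbers do not pair the libraries. Of the values of single genes under an alternative, 1927 kept their call or moved by less than 1 SD, 40 gained a call, 14 lost one, 17 moved further without a call, and 0 had opposite signs with a call on either side. Signs of uncalled differences were less stable: of the 63 Hox differences between ages, 27 changed sign under at least 1 alternative and 36 under none. Quantile normalization moved the median difference of all rows by at most 0.03 on the log2 scale. Depth is unknown, so levels under 1 FPKM cannot be given a counting error, and the log2(FPKM + 1) scale compresses them. Each age has 3 libraries, and age and batch cannot be told apart between 3 months and the older ages.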

Other observations

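The Hox levels of a library can be read by number rather than by cluster. Summed over the clusters, number 5 genes were at 11.5 to 13.6 FPKM at 3 months, 17.8 to 19.2 FPKM at 19 months and 12.4 to 21.2 FPKM at 24 months. Number 8 genes were at 30.9 to 40.5, 46.6 to 53.1 and 42.6 to 50.9 FPKM in the same order. For both numbers every 19-month library was above every 3-month library. Hoxc8 made up 36.1 FPKM of the mean number 8 sum of 44.3 FPKM. Of the number 5 genes, Hoxb5 and Hoxc5 each had this pattern, while Hoxa5 overlapped between 3 and 19 months. Number 9 genes were at 4.99 to 9.88 FPKM at 3 months, 9.75 to 13.2 FPKM at 19 months and 6.69 to 9.32 FPKM at 24 months. Here 3 months overlapped both other ages, and every 19-month library was above every 24-month library. Hoxb9 made up 6.67 FPKM of the mean number 9 sum of 8.94 FPKM. Cluster sums were highest for Hoxa, at 98.5 to 232 FPKM, followed by Hoxc at 40.9 to 66.0 FPKM, Hoxb at 20.9 to 29.3 FPKM and Hoxd at 4.89 to 11.7 FPKM. The 4 ranges do not overlap between any of the clusters over the 9 libraries. Hoxa7 made up 115 FPKM of the mean Hoxa sum of 140 FPKM. Hoxc8 made up 36.1 FPKM of the mean Hoxc sum of 54.7 FPKM, beside a mean Hoxb sum of 24.9 FPKM. The order of the cluster sums therefore depends on these single genes. These sums were chosen after seeing the data and were not tested.

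The number of Hox rows at 1 FPKM or more was 17 to 20 at 3 months, 18 to 21 at 19 months and 20 to 21 at 24 months. The number above 0 was 27 to 31 in the 9 libraries. Summed over numbers 10 to 13 without Hoxc13, the level was at most 0.168 FPKM in any library.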
